A study of Mus musculus with 3 samples.

Results

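CD11b-tag-high migratory dendritic cells made up 896 of 5019 kept cells (17.9%) in a CITE-seq capture of dendritic cells from ear-draining lymph nodes. CITE-seq reads the mRNA of a cell together with the barcodes of antibodies bound to its surface, both as unique molecular identifiers (UMIs). For a cell to be kept, 1 hashtag had to hold 80% or more of its hashtag UMIs, its gene number had to reach 500 and its mRNA UMIs 1000, and mitochondrial genes could take up to 10% of these. The members were chosen by measured values: a CD11b tag of 150 or more UMIs, a CD8a tag below 120, fewer than 5 UMIs of Tnfsf4, fewer than 5 of C1qa, C1qb and C1qc together, and at least 1 of Ccr7. The levels of those tags and genes, and of the 5 markers supplied with the definition (Edil3, Plek2, Ifitm1, Gstt1 and Apol10b), are therefore given as descriptions.

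All cells came from mice treated with MC903, a vitamin D analogue applied to skin, on days 0, 2 and 4 and sorted on day 5. The mice were SiglechiCreTg/0 ROSA26LoxP-STOP-LoxP-RFP Tnfsf4KI/+, so every group shares the treatment, the Cre allele and 1 modified copy of Tnfsf4. Cre expressed from Siglech, a gene of plasmacytoid dendritic cells and their precursors, switches on RFP lastingly, and the blue fluorescent protein BFP is the other sorted reporter. The gate (B220-, MHC II high, CD11c low to intermediate, XCR1-, CD326-) was divided by reporter, and the pool took 5200 cells each of BFP+RFP+, BFP-RFP+ and the double-negative BFP-RFP- sort, with 10400 of BFP+RFP-. No untreated animals were analysed here. Each sorted population entered once, in 1 capture, so it counts as 1 sample. No p-value is given, and each interval is an exact 95% interval for counting error only, except the approximate intervals of share ratios.

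Migratory dendritic cells leave the skin, switch on the chemokine receptor CCR7 and carry antigen to the T cell zone of the draining node. CD11b is the alpha M integrin chain, encoded by Itgam, and marks many type 2 conventional dendritic cells together with CD172a, the signal regulatory protein encoded by Sirpa. CD301b is a galactose-binding C-type lectin encoded by Mgl2 that marks dermal type 2 dendritic cells.

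The antibody barcodes are shown because the CD11b and CD8a barcodes, and not the genes of these proteins, entered the choice of members, and CD172a and CD301b describe them further. Each barcode is 15 bases and is printed in capitals throughout, since all of its bases are read.
CD11b: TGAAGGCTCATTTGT
CD8a: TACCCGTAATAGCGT
CD172a: GATTCCCTTGTAGCA
CD301b: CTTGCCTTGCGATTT
The 4 hashtag barcodes are shown next because they assign each member to its sort: Hashtag1 marked BFP+RFP+, Hashtag2 marked BFP-RFP+, Hashtag3 marked BFP+RFP- and Hashtag4 marked BFP-RFP-.
Hashtag1: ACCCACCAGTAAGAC
Hashtag2: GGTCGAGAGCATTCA
Hashtag3: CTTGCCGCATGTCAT
Hashtag4: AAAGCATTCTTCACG
The CD301b barcode and Hashtag3 were the closest pair and differed at 7 of their 15 bases. The CD11b barcode differed from its nearest neighbour at 11 bases.

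The members were unevenly spread over the sorted populations. They were 39 of 841 BFP+RFP+ cells (4.64%, 3.32 to 6.29), 103 of 982 BFP-RFP+ cells (10.5%, 8.64 to 12.6), 499 of 2184 BFP+RFP- cells (22.8%, 21.1 to 24.7) and 255 of 1012 BFP-RFP- cells (25.2%, 22.5 to 28.0). The share was 4.93 times higher in RFP- than in RFP+ cells within BFP+ (3.59 to 6.76) and 2.40 times higher within BFP- (1.94 to 2.97). With the CD11b tag criterion alone, which 1258 cells met, these ratios were 2.26 and 1.63. The other criteria thus set part of the contrast: of those 1258 cells, 260 had a CD8a tag of 120 or more, 78 had 5 or more Tnfsf4 UMIs, 67 had no Ccr7 and 40 had 5 or more C1q UMIs, with overlap between the reasons. Between BFP+ and BFP- cells the ratio of shares was 0.907 (0.795 to 1.03) within RFP- and 0.442 (0.309 to 0.632) within RFP+. With the CD11b tag criterion alone it was 0.887 (0.794 to 0.991) within RFP- and 0.641 (0.516 to 0.796) within RFP+, so the other criteria set part of this contrast too.

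The members' summed mRNA UMIs were 791621, 1856585, 8719484 and 4184247 in the 4 populations, so values from the BFP+RFP+ members rest on the fewest molecules. Their median depth was 16366 mRNA UMIs per cell, against 14185 in the 4123 other kept cells and 12673 in the 2380 cells that met every other criterion but had a CD11b tag below 150, called CD11b-tag-low cells here. Cells with more than 29226 mRNA UMIs, which is double the median of the kept cells, were 6.70% of members, 6.94% of other kept cells and 1.43% of CD11b-tag-low cells. The part of depth and of cell doublets in the differences against the CD11b-tag-low cells was not tested.

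The label of migratory dendritic cell was checked against 15 marker genes. Ccr7 is one of them but entered the choice of members, so its level is no check. It stood at 1472, 1378, 1421 and 1577 CPM (UMIs per 1000000 mRNA UMIs) in members of the 4 sorts, given in hashtag order here and in every set of 4 values, and between 1303 and 1492 CPM in the other kept cells. Fscn1, the actin-bundling protein fascin, was at 2156 CPM over all members and 2163 CPM over the others. The summed level of the 14 markers without Ccr7 was 12895 to 14249 CPM in members and 12485 to 13118 CPM in others. None of the 14 met the criterion for a difference that is defined below, so these markers describe the whole sort and not the members alone.

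Markers of other cells that the gate could hold differed in direction. The 12 T and NK cell markers summed to 303 CPM in members and 450 CPM in others, and the 10 B cell markers to 39.6 and 142 CPM. Of the members, 33 (3.68%) had 3 or more UMIs of 6 T and B cell genes, against 8.71% of the others; in BFP-RFP+ the shares were 9.71% and 8.65%. The 10 neutrophil markers summed to 1.54 CPM, with 7 of them at 0 UMIs in members. Langerhans cell markers summed higher, to 172 CPM in members and 90.1 CPM in others, and 123 of the 172 CPM were Ltc4s. The defining gene Cd207 had 4 UMIs in members (0.257 CPM against 0.0772 CPM in others), and Epcam, which encodes the gated-out CD326, was at 3.41 against 2.18 CPM. After thinning to 5000 UMIs, 1.53% of members (0.817 to 2.60) and 0.843% of others (0.577 to 1.19) had an Epcam UMI. The 12 cDC1 markers also summed higher, to 634 CPM against 519 CPM, with Irf8 the only one called higher and Cadm1 called lower. By the comparison described below, 2 of the 7 with enough UMIs had a mean log2 ratio above 0 and 5 below it (median -0.14). The higher sum thus does not describe most of them. Xcr1, the cDC1 receptor excluded by the gate, had 1 UMI in members and 10 in others. The 15 monocyte and macrophage markers summed to 143 to 824 CPM in members of the 4 populations and 209 to 728 CPM in others. The limit on C1q UMIs applied to members and not to these others. The median log2 ratio of this list was -0.31 against the others and 1.13 against the CD11b-tag-low cells, which meet that limit. Of 14 type 2 dendritic cell markers with enough UMIs, 1 was called higher and none lower. Their medians in these comparisons were 0.13 and 1.24.

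Itgam mRNA was scarce in members. The tag had a median of 270 UMIs in members and 28 in other kept cells, a difference fixed by the definition. Itgam had 136 UMIs over all kept cells and 21 over all members, at 3.79, 1.08, 0.917 and 1.91 CPM. After thinning each cell to 5000 mRNA UMIs, 0.353% of members (0.0730 to 1.03) and 0.448% of other kept cells (0.261 to 0.716) had an Itgam UMI. The CD11b-tag-low cells had fewer: 4 UMIs in all, in 0.0925% of thinned cells (0.0112 to 0.334), or in 0.168% against 1.79% of members without thinning. The 1247 of them with a tag below 25 had none, which allows up to 0.202 CPM. Cells with 5 or more C1q UMIs had one in 16.3% (6.81 to 30.7). Itgb2, the beta chain that pairs with CD11b and CD11c, was at 11.4, 16.7, 5.96 and 10.5 CPM in members and 7.65, 13.2, 11.3 and 13.1 CPM in others, with no shared direction. Itgax, the gene of CD11c, was higher in members of every population, at 16.4, 28.5, 11.4 and 15.8 CPM against 2.998, 5.90, 4.91 and 11.7 CPM (mean log2 ratio 1.60 by the comparison described below).

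The other tagged proteins were not used to include members, apart from the upper limit on CD8a. CD172a had a median of 121 tag UMIs in members and 86 in others, pooled over the populations. By population the medians were 131, 189, 109 and 131 against 62, 93, 86 and 129, so the BFP-RFP- members hardly differed from the others. Sirpa was at 149, 141, 143 and 133 CPM in members against 43.9, 104, 59.4 and 117 CPM. Sirpa spanned a narrow range among members and a wide one among the others, so its log2 ratio ran from 0.18 in BFP-RFP- to 1.77 in BFP+RFP+ and it was not called. CD301b had a median of 40 tag UMIs in members and 31 in others. Within members the CD172a and CD301b tags ran together (Spearman's rho 0.61 over 896 cells of 1 capture, a description that shares depth and staining), and the CD11b tag followed them less closely (0.33 with CD172a, 0.24 with CD301b).

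**Figure D1:**
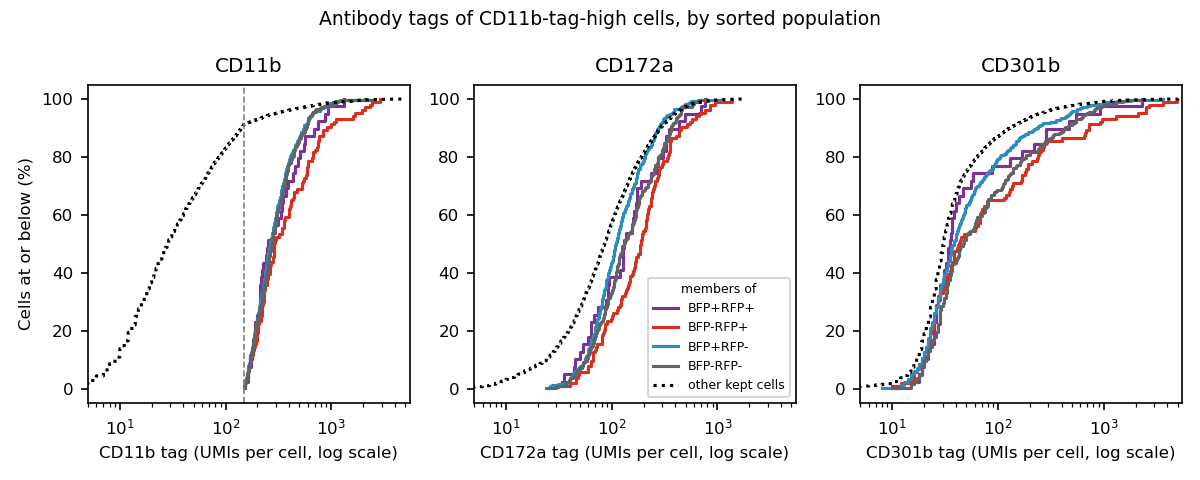
Cumulative share of cells (%) against tag UMIs per cell on a log axis for CD11b, CD172a and CD301b, with 1 line per sorted population of members and a dotted line for all other kept cells; the dashed line marks 150 CD11b UMIs. Members start at 150 by definition. At the quartiles their CD172a and CD301b curves lie to the right of the dotted line, which pools all populations, with a long CD301b tail. In the upper tail the CD172a curve of BFP+RFP- members lies to the left of it (95th percentile 360 against 398 UMIs).

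The threshold at 150 cuts a continuous range. There were 239 cells with a CD11b tag of 100 to below 150 that met the other criteria and 210 members from 150 to below 200. Just outside and just inside, Gstt1 stood at 17.5 and 17.2 CPM, Ifitm1 at 80.3 and 43.4 CPM, Plek2 at 22.2 and 12.3 CPM, Apol10b at 21.3 and 15.1 CPM and Edil3 at 8.92 and 21.5 CPM. These values are summed over the populations. Edil3 was thus higher just inside and Plek2, Ifitm1 and Apol10b were lower. The near-equal Gstt1 sums hide a fall from 31.4 to 18.9 CPM in BFP+RFP-, while in BFP-RFP- its 5 and 4 UMIs gave 5.53 and 4.44 CPM.

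Gene expression was compared by summing UMIs within each population, taking the log2 ratio of members over other kept cells with 0.5 UMI added, and averaging the 4 ratios with equal weight. A gene was called higher or lower when that mean was at least 1 in size and all 4 ratios had the same sign. Among 10888 genes with 100 or more UMIs, 135 were called higher in members (1.24%) and 351 lower (3.22%). With a pseudocount of 5 in place of 0.5 the counts were 398 higher and 65 lower, so the split between directions depends on that setting. Against the CD11b-tag-low cells, 191 of 10095 genes were called higher (1.89%) and 257 lower (2.55%). Both comparisons share the members and called 98 genes higher, which is 72.6% of the first list and 51.3% of the second.

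All of the 5 supplied markers had a positive mean ratio, and 3 of them met the criterion. Edil3 encodes a secreted integrin ligand, and it was at 2.53, 16.7, 26.5 and 18.9 CPM in members against 0.974, 1.87, 4.54 and 7.48 CPM in others (mean log2 ratio 2.17). Only 2 UMIs stand behind its BFP+RFP+ value. Plek2, an actin-linked pleckstrin, was at 37.9, 9.16, 42.3 and 10.3 CPM against 1.72, 4.10, 6.21 and 4.21 CPM (2.42), so its level was high in both BFP+ populations of members and low in both BFP- ones. Gstt1, a glutathione transferase, was at 25.3, 14.5, 33.0 and 20.3 CPM against 2.25, 4.18, 6.40 and 6.27 CPM (2.34). The members lay above the others for these 3 genes in each population.

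The other two markers were not higher in every population. Ifitm1, an interferon-induced membrane protein, was at 60.6, 224, 147 and 67.2 CPM in members against 4.42, 20.4, 36.6 and 82.7 CPM in others. Its log2 ratio was 3.78, 3.45 and 2.01 in the first 3 populations and -0.30 (-0.50 to -0.10) in BFP-RFP-, where the other cells were the highest of the 4. Without thinning, an Ifitm1 UMI was found in 6 of 39, 14 of 103, 143 of 499 and 41 of 255 members. The member values of both RFP+ populations thus rest on few cells. Apol10b, of the apolipoprotein L family, was at 2.53, 15.6, 21.5 and 17.4 CPM against 2.02, 8.57, 6.48 and 19.1 CPM. Its ratio was -0.12 in BFP-RFP- and up to 1.73 in BFP+RFP-.

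Each marker was found in a minority of members. After thinning to 5000 UMIs, which left 850 members and 3795 other kept cells, Ifitm1 was seen in 12.9% of members, Gstt1 in 8.0%, Apol10b in 7.06%, Plek2 in 6.82% and Edil3 in 5.88%. The shares in other kept cells were 4.66%, 1.34%, 3.37%, 1.37% and 1.03%. Cells with 3 or more UMIs of T or B cell genes gave 4.66%, 2.48%, 0.932%, 1.55% and 1.86%. Before thinning this set held 33 members, and 24.7% of its cells had a Sirpa UMI. It is therefore no background free of dendritic cells or of members. Members lay above this set for all 5 markers, and the other kept cells lay above it clearly for Apol10b only. Without thinning, Ifitm1 had a UMI in 204 of 896 members, Apol10b in 158, Plek2 in 122, Gstt1 in 120 and Edil3 in 107.

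Of the 850 thinned members, 70.6% had none of the 5 markers and 9.06% (7.22 to 11.2) had 2 or more, against 90.3% and 1.74% (1.35 to 2.21) of the others. Plek2 and Ifitm1 met most often: 43.1% of the 58 members with Plek2 also had Ifitm1, against 10.7% of the 792 without it. Of the 68 with Gstt1, 33.8% had Ifitm1, against 11.1% of the rest. Apol10b and Ifitm1 overlapped less, in 16.7% of the 60 members with Apol10b against 12.7% of the rest. Thinned cells keep some difference in RNA content, whose part in this overlap was not tested.

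The 15 genes named as higher by a rule on size and evenness across populations were of varied function. Phf11a, a PHD finger gene with near copies whose reads the counting could split, led by its smallest ratio and was at 13.9, 12.9, 20.4 and 17.9 CPM in members against 3.75, 4.97, 3.98 and 6.74 CPM (mean log2 ratio 1.78). Ehf, an ETS-family transcription factor of epithelia, was at 20.2, 29.6, 17.6 and 54.2 CPM against 1.57, 9.21, 7.03 and 14.1 CPM (2.16). Rai14, an actin-associated ankyrin protein, was at 31.6, 22.6, 38.1 and 32.5 CPM against 2.32, 9.72, 8.41 and 13.1 CPM (2.12). For these 3 genes the lowest of the 4 member values was above the highest of the 4 other values. The Rai14 and Ehf values of BFP+RFP+ members rest on few cells. The 8 members there with the highest CD301b tags held 20 Rai14 and 12 Ehf UMIs. The remaining 31 held 5 and 4 UMIs (8.22 and 6.58 CPM), which is below the highest value of the other cells for each gene.

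Aldh1a2, the retinal dehydrogenase that makes retinoic acid, was at 50.5, 45.2, 36.1 and 61.7 CPM in members against 7.49, 21.1, 10.9 and 7.39 CPM in others (2.16). Ptgs2, the inducible cyclooxygenase of prostaglandin synthesis, was at 177, 45.2, 64.9 and 53.8 CPM against 28.3, 21.5, 17.7 and 28.5 CPM (1.63), with BFP+RFP+ members the highest. That BFP+RFP+ member value rests on few cells. The 8 members there with the highest CD301b tags held 116 Ptgs2 UMIs (632 CPM). The remaining 31 held 24 UMIs (39.5 CPM), which is below the member values of the other populations. Clu, the secreted chaperone clusterin, was at 97.3, 118, 102 and 178 CPM against 35.0, 38.1, 54.2 and 49.7 CPM (1.47). In each of these genes all 4 member values were above all 4 values of the other cells. The Clu value of BFP+RFP+ members rests on few cells too. The same 8 members held 64 Clu UMIs (349 CPM). The remaining 31 held 13 UMIs (21.4 CPM), which is below all 4 values of the other cells.

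A pair of killer cell lectin-like receptor genes was among them. Klrk1, which encodes NKG2D, was at 44.2, 64.1, 53.2 and 51.6 CPM in members against 16.6, 20.2, 23.3 and 21.3 CPM in others (1.39), so its member values lay close together and above all 4 of the others. Klri1 was at 16.4, 37.7, 30.7 and 27.2 CPM against 3.90, 12.7, 10.3 and 14.5 CPM (1.54). After thinning, Klrk1 was seen in 19.8% of members (17.1 to 22.6), in 7.09% of other kept cells and in 6.83% of cells with T or B cell genes. NK cell genes were not higher with them: Nkg7 was lower in members, with 13 UMIs in all and a mean log2 ratio of -3.69, and Klrd1 had a mean of 0.02.

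The other 7 named genes were Abcg3, an ABC transporter (1.48), Acp5, tartrate-resistant acid phosphatase (1.26), St18, a zinc finger factor (1.76), Rnf217, a ubiquitin ligase (1.41), Rtl5, a retrotransposon-derived gene (1.37), Parp12, an interferon-inducible ADP-ribosyltransferase (1.30), and Bahcc1 (1.26), each as a mean log2 ratio. Bahcc1 was lowest in abundance, at 3.79, 8.62, 9.06 and 11.5 CPM in members. Against the CD11b-tag-low cells, 14 of the 15 genes had a mean of at least 1, the exception being Bahcc1 at 0.95. The naming rule had already required a positive mean there, and those cells are part of the other kept cells, so this is no independent support.

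**Figure D2:**
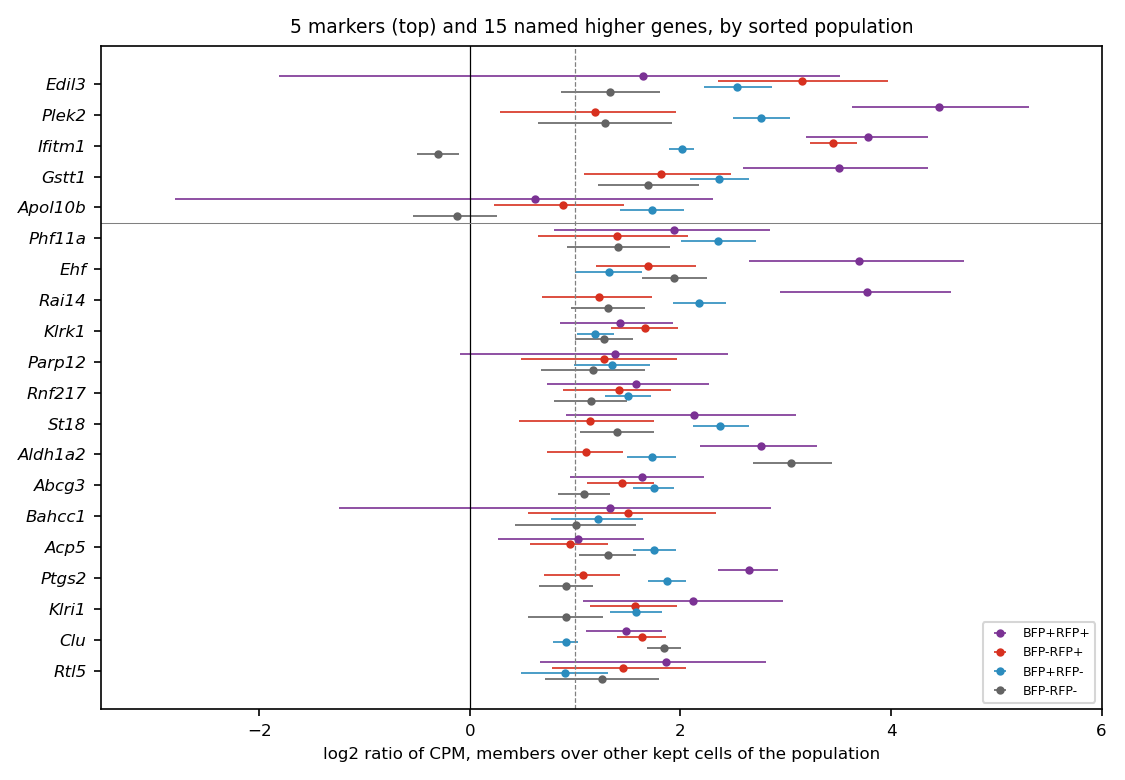
Log2 ratio of CPM in members over other kept cells (x axis) for the 5 supplied markers and the 15 named higher genes, with 1 point per sorted population and bars for exact 95% counting intervals; the solid line is 0 and the dashed line 1. The 15 named genes lie right of 0 in all populations, while Ifitm1 and Apol10b cross to the left in BFP-RFP-.

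Levels along the CD11b tag were read within the 2 largest sets, BFP+RFP- and BFP-RFP-, over cells that met the other criteria. In BFP+RFP-, Phf11a was at 0.141 CPM in the 580 cells with a tag below 25, at 12.8 CPM from 100 to 150 and at 21.4 CPM from 300. Sirpa ran from 44.7 to 174 CPM between the same end bins, and in BFP-RFP- from 60.0 to 142 CPM. Sned1, an extracellular matrix gene, ran the other way, from 129 to 13.9 CPM in BFP+RFP- and from 158 to 24.1 CPM in BFP-RFP-. Clu did not keep its direction: in BFP+RFP- it reached 149 CPM from 100 to 150 and was at 75.9 CPM from 300.

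**Figure D3:**
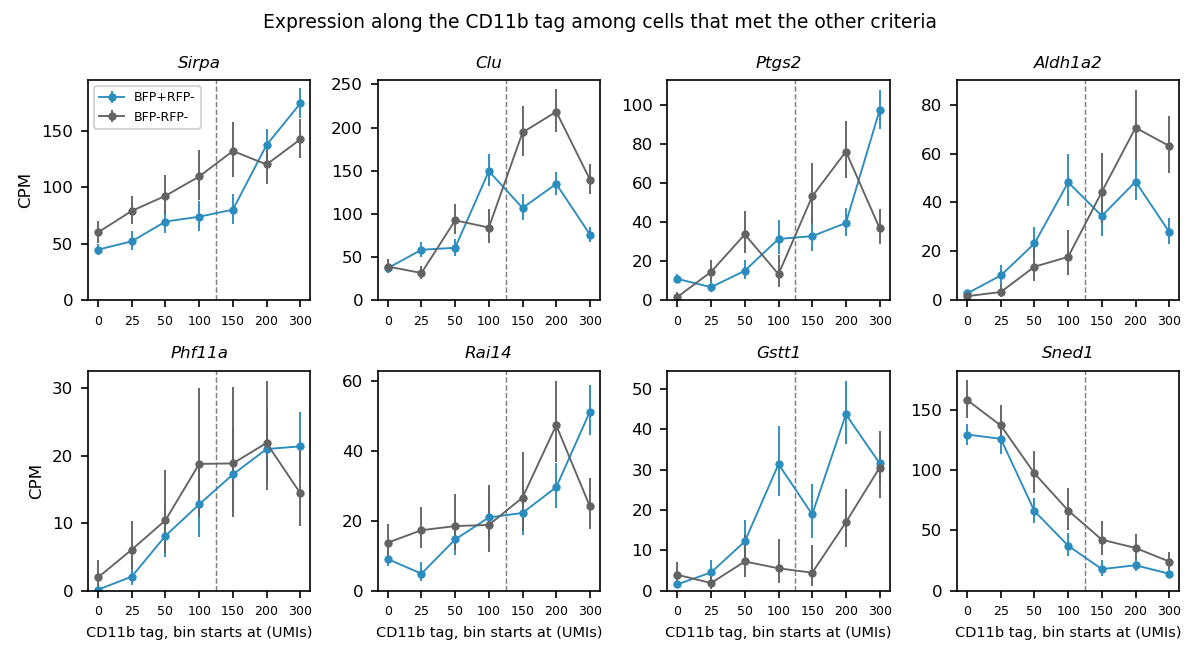
CPM of 8 genes (y axis) in 7 bins of the CD11b tag (x axis, start of each bin in UMIs) in BFP+RFP- and BFP-RFP- cells that met the other criteria, with exact Poisson 95% bars; the dashed line marks the member threshold. Phf11a, Sirpa and Rai14 lie higher in the upper bins than in the lowest, Sned1 lies lower, and Clu and Aldh1a2 peak before the last bin in BFP+RFP-.

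Pattern recognition and antigen receptors differed gene by gene. Of 14 C-type lectin genes with enough UMIs, 2 were called higher and none lower (median of the list 0.27, against -0.05 over all genes tested). Against the CD11b-tag-low cells, where genes such as Clec4a1 had few UMIs, the median of the list was 2.01, against -0.07 over all genes tested. Clec7a, the beta-glucan receptor dectin-1, was at 136, 141, 106 and 96.6 CPM in members against 11.6, 30.4, 24.9 and 60.3 CPM in others (2.13). Clec12a was at 3.79, 12.4, 12.3 and 21.0 CPM against 2.40, 5.40, 4.09 and 13.7 CPM (1.07, and 0.90 without BFP+RFP-, which ends the call). Mgl2 was at 54.3 and 84.0 CPM in the RFP+ members against 10.3 and 38.6 CPM, but at 8.83 and 11.7 CPM in the RFP- members against 9.64 and 18.5 CPM, so its direction depended on the population.

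Of 13 class II presentation genes, 1 was called lower and none higher, while 9 were lower in all 4 populations, as were 1981 of the 10888 genes tested. The median of the list was -0.45 against the other kept cells and -0.12 against the CD11b-tag-low cells, so its size depended on the comparator. H2-Oa, a chain of the DO modulator of peptide loading, was at 70.7, 46.3, 40.8 and 35.9 CPM in members against 169, 85.3, 123 and 63.5 CPM in others (-1.13, and -0.98 without BFP+RFP-, which ends the call). H2-DMa, of the peptide loader DM, had a mean of -0.86 and H2-Ab1 one of -0.18, neither called. The lipid-presenting molecule Cd1d1 went the other way, at 89.7, 89.4, 198 and 127 CPM against 44.2, 49.96, 53.8 and 57.4 CPM (1.23).

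Among 15 chemokines, 2 were called higher and 1 lower. Ccl17, a ligand of CCR4, was at 1060, 765, 627 and 552 CPM in members against 208, 429, 325 and 398 CPM in others (1.15), while Ccl22, the other CCR4 ligand, was at 2895, 1514, 1875 and 1525 CPM against 1832, 1884, 2110 and 2026 CPM. Ccl22 was higher only in the BFP+RFP+ members. Ccl9 was at 78.3, 12.4, 30.4 and 29.9 CPM against 5.25, 8.42, 12.1 and 9.07 CPM (1.88). Ccl4 was lower (-1.58), but its ratio was -0.09 and -0.11 in the RFP- populations. Without the BFP+RFP+ population the means were 0.75 for Ccl17 and -0.85 for Ccl4, which ends both calls, and 1.21 for Ccl9.

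Of 13 cytokines, Il1b and Il1rn were called higher and Il6 lower. Il1b was at 293, 319, 283 and 256 CPM in members against 65.3, 164, 91.7 and 225 CPM in others (1.24). Il1rn, the IL-1 receptor antagonist, was at 31.6, 16.2, 23.6 and 12.4 CPM against 4.35, 7.49, 4.87 and 8.23 CPM (1.72). Il1r1, the receptor of both, was lower at 3.79, 12.9, 1.49 and 1.43 CPM against 32.4, 15.05, 13.5 and 5.89 CPM (-2.03), with a ratio of -0.19 in BFP-RFP+. Il6 was at 7.58, 2.15, 6.65 and 6.69 CPM against 30.5, 14.3, 12.1 and 7.39 CPM (-1.36), with a ratio of -0.13 in BFP-RFP-. The mean of Il1b was 0.92 without BFP+RFP+ and that of Il6 -0.96 without BFP-RFP+, and neither call held then. Of 21 cytokine receptor genes, 2 were called lower and none higher; the second was Tgfbr2 (-1.32).

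Interferon-linked genes were higher in part. Of 12 type I interferon response genes, 3 were called higher and none lower (median 0.26). Isg15, a ubiquitin-like modifier, was at 51.8, 156, 125 and 53.8 CPM in members against 11.6, 28.5, 23.3 and 51.3 CPM in others (1.78), with a ratio of 0.07 in BFP-RFP-. Oas1a (1.59) and Ifit1 (1.64) rest on 72 and 84 member UMIs, and Oas1a has near copies. Irf7 (0.05) and Cxcl10 (-0.22) were not called. Ifitm3, of the same family as Ifitm1, was at 56.9, 145, 102 and 104 CPM against 32.0, 53.1, 27.5 and 79.6 CPM (1.15, and 0.90 without BFP+RFP-, which ends the call), while Ifitm2 had a mean of 0.51.

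In the families of the other markers, Gstt3 (1.32) and the cystine transporter Slc7a11 (1.04) were called with Gstt1 among 15 glutathione genes, of which none was called lower, although 4 had a mean below 0. Slc7a11 was at 126, 149, 178 and 215 CPM in members against 62.4, 69.7, 77.1 and 120 CPM in others. Of the 2 apolipoprotein L genes with 100 or more UMIs, Apol7c was called higher, at 630, 559, 941 and 687 CPM against 45.5, 315, 236 and 589 CPM (1.71). Its mean was 1.01 without BFP+RFP+, and that of Slc7a11 was 0.99 without BFP+RFP-, just short of the call. Of 18 actin and pleckstrin genes Plek2 alone was called, and Plek itself had a mean of -0.06. F11r, the junctional adhesion molecule JAM-A that binds CD11a/CD18, was at 21.5, 16.7, 56.1 and 28.9 CPM against 7.72, 9.65, 14.5 and 13.1 CPM (1.35).

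Among 24 dendritic cell transcription factors, Irf8 and Vdr were called higher and none lower. Irf8, best known for type 1 and plasmacytoid dendritic cells, was at 250, 173, 235 and 150 CPM in members against 57.7, 84.7, 83.7 and 119 CPM in others (1.24, and 0.95 without BFP+RFP+, which ends the call). Irf4, which type 2 dendritic cells need for migration, was at 87.2, 100.2, 69.6 and 73.1 CPM against 127, 140, 116 and 105 CPM (-0.57, lower in all 4 but not called). Vdr, the vitamin D receptor through which MC903 acts, was at 55.6, 38.2, 59.6 and 54.7 CPM against 33.6, 25.6, 21.8 and 20.7 CPM (1.05). Its mean was 0.91 without BFP+RFP- and 0.93 without BFP-RFP-, so its call did not hold in either case. Cyp24a1, the enzyme that breaks down active vitamin D, had 22 UMIs over all kept cells, of which 21 were in 5 members (15 in BFP-RFP- and 6 in BFP+RFP-). The RFP+ members had none, which allows up to 3.79 and 1.62 CPM.

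Further list genes called higher were Fabp4, a fatty acid carrier (1.98), Ltc4s, leukotriene C4 synthase (1.29), Tgm2, transglutaminase 2 (1.53), and the heat shock gene Hspa1a (1.05), which has a near copy. Fabp4 was at 106, 54.4, 111 and 94.4 CPM in members against 14.2, 29.2, 25.1 and 24.3 CPM in others. Ltc4s was at 88.4, 99.1, 110 and 166 CPM against 17.7, 55.5, 54.3 and 85.3 CPM. Without BFP+RFP+ the means of Ltc4s and Hspa1a were 0.94 and 0.84, and without BFP-RFP+ that of Hspa1a was 0.97, so these calls did not hold. Among survival genes Bcl2 was called lower, at 2.53, 5.93, 8.03 and 3.11 CPM against 27.5, 27.9, 36.7 and 24.2 CPM (-2.60). Of 13 proliferation genes 3 were called lower and none higher: Rrm2 (-2.34), Top2a (-1.72, and -0.81 without BFP+RFP+) and Cdk1 (-1.10, and -0.91 without BFP+RFP-).

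Among the 15 genes named as lower, Cd8a and Tnfsf4 follow from the definition. Several others are known from T cells, such as Lck, a kinase of the T cell receptor, Ms4a4b, and the GTPases Gimap4, Gimap6 and Gimap9. The share of cells with T or B cell genes was larger in the other kept cells than in members in 3 of the 4 populations, as given above. Leaving out cells with 3 or more UMIs of T or B cell genes, or 5 or more of C1q, from members and others alike, which was chosen after seeing the data, called 196 genes higher and 199 lower. The mean log2 ratio then went from -1.95 to -0.13 for Lck, from -1.70 to -0.54 for the kinase gene Tnik, from -2.96 to -1.23 for Ms4a4b, from -2.61 to -1.17 for Gimap4, from -2.58 to -1.29 for Gimap6 and from -2.46 to -1.51 for Gimap9. Ripor2 moved less, from -2.04 to -1.70. Lck and Tnik thus lost most of their difference, while the other 5 of these genes stayed below -1.

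Sned1, Ldb2, Mex3a and Gprin2 kept their size when those cells were left out. Sned1 was at 39.2, 44.2, 17.1 and 31.8 CPM in members against 104, 114, 96.4 and 113 CPM in others (mean log2 ratio -1.77, and -1.87 without those cells). Ldb2, a cofactor of LIM-domain transcription factors, was at 5.05, 0.539, 0.917 and 0.239 CPM against 16.9, 8.57, 8.60 and 5.05 CPM (-2.99 and -3.39). Mex3a, an RNA-binding protein, had means of -1.57 and -1.76, and Gprin2 of -1.99 and -1.98. Gprin2 had a mean of -0.66 against the CD11b-tag-low cells, so its size depended on the comparator. Kcnn4, a calcium-activated potassium channel, and Pced1b had means of -2.39 and -2.02, and smaller ones of -1.46 and -1.60 without those cells.

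Between members of the sorted populations, few genes differed by a log2 ratio of at least 1 in both strata, among 7910 genes with 100 or more UMIs in members. For RFP+ over RFP-, 33 were higher (0.417%) and 8 lower (0.101%). For BFP+ over BFP-, 6 were higher (0.0759%) and 35 lower (0.442%). The red reporter followed its label: tdRFP had 17 and 29 UMIs in the RFP+ members and 0 in the RFP- members, which allows up to 0.344 CPM in BFP+RFP- and 0.717 CPM in BFP-RFP-. BFP mRNA, at 12.6, 3.23, 4.01 and 2.39 CPM, separated the labels less. It had 35 UMIs in the BFP+RFP- members and 6 in the BFP-RFP+ members.

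Of 9 type 2 dendritic cell markers with 100 or more UMIs in members, 3 were higher in RFP+ members in both strata (Mgl2, Cd209a and Tnip3) and none lower, and of 7 monocyte and macrophage markers 1 was higher (Lyz2) and none lower. The median log2 ratios were 0.33 and 0.61 for the first list and -0.09 and 0.94 for the second. Few cells carried most of the member UMIs of Mgl2 and Cd209a and a large part of those of Lyz2. Mgl2 was higher by a log2 ratio of 2.63 within BFP+ and 2.83 within BFP-, against 0.10 and 1.06 in the other kept cells, and 5 cells held 54.5% of its member UMIs. Cd209a, the lectin DC-SIGN homologue, was at 73.3, 40.4, 0.459 and 4.30 CPM, with 89.0% of its UMIs in 5 cells. Lyz2, lysozyme of myeloid cells, was at 139, 471, 30.2 and 92.5 CPM (2.21 and 2.35), with 45.1% in 5 cells. Il12b was at 49.3, 76.0, 24.8 and 26.3 CPM with 37.2% in 5 cells. Tnip3, an inhibitor of NF-kB signalling, was spread more widely (11.4% in 5 cells), at 75.8, 93.7, 35.1 and 46.4 CPM.

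The genes chosen for being widely spread differed less. Nr4a3, an immediate early nuclear receptor, was at 570 and 726 CPM in RFP+ members and at 327 and 425 CPM in RFP- members, a log2 ratio of 0.80 (0.65 to 0.94) within BFP+ and 0.77 (0.67 to 0.87) within BFP-. In the other kept cells the same ratios were -0.05 and 0.00. Plscr1, a phospholipid scramblase induced by interferon, had ratios of 0.84 and 0.91, with 0.89 and 0.55 in the others, so it was not particular to members. Xiap, an inhibitor of caspases, had 0.75 and 0.76, and Nme1, a nucleoside diphosphate kinase, 0.74 and 0.76. Zmynd15 was lower in RFP+ members, at 83.4 and 84.6 CPM against 224 and 199 CPM (-1.42 and -1.23), with like ratios in the others (-1.14 and -1.20). Baiap2 (-1.19 and -0.88), Dglucy (-0.91 and -0.89) and F11r (-1.34 and -0.78) were below it in size. By the F11r levels given above, the other kept cells were also lower in RFP+ than in RFP- in both strata, so that direction was not particular to members.

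For BFP, Plek2 stood out among the supplied markers: BFP+ over BFP- members gave a log2 ratio of 2.03 within RFP+ (lower bound 1.14) and 2.03 within RFP- (1.58 to 2.53), against -1.23 and 0.55 in the other kept cells. Clasrp, a splicing-linked protein, was at 20.2 and 13.3 CPM in BFP+ members and at 7.002 and 4.78 CPM in BFP- members (1.52 and 1.45). Myo10, an unconventional myosin of filopodia, had ratios of 0.97 and 0.86, with -0.06 and 0.21 in the others. Prnp, the prion protein gene, had 0.80 and 0.68, with 0.72 and 0.54 in the others.

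Genes lower in BFP+ members included Il18, at 17.7 and 13.2 CPM against 36.6 and 26.8 CPM (-1.01 and -1.02), and Lyz2 (-1.76 and -1.62). Wdfy4, which cross-presentation needs, was at 21.5 and 11.4 CPM against 139 and 29.9 CPM (-2.65 and -1.39). Ramp1, a receptor partner for the neuropeptide CGRP, was at 12.6 and 18.1 CPM against 36.1 and 33.9 CPM (-1.45 and -0.91). All of these were also lower in the BFP+ cells among the others, by -1.11 and -0.67 for Il18, -1.41 and -2.35 for Lyz2, -1.63 and -1.34 for Wdfy4 and -0.76 and -0.60 for Ramp1. Hspa1b, at 124 and 117 CPM against 258 and 212 CPM, was likewise lower in both sets of cells.

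**Figure D4:**
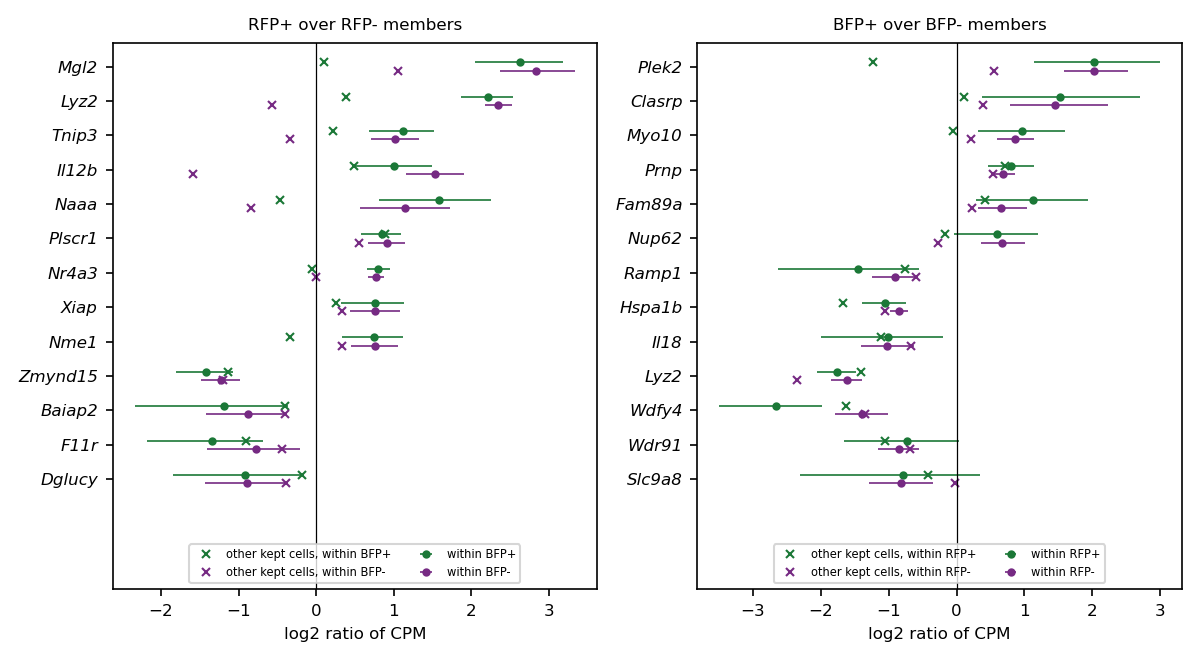
Log2 ratio of CPM (x axis) between members of the sorted populations, RFP+ over RFP- on the left and BFP+ over BFP- on the right, for called and named genes; points with exact 95% counting bars are members in each stratum and crosses are the other kept cells. Nr4a3 and Tnip3 lie right of 0 in members of both strata with crosses near 0. For BFP, Plek2 lies right of 0 in members of both strata, with its crosses on opposite sides of 0.

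The CD301b tag split the members further. A tag of 150 or more, a limit chosen after the values were seen, held in 170 members (19.0%): 8 of 39, 30 of 103, 73 of 499 and 59 of 255. Summed over populations, these cells had Mgl2 at 50.4 CPM against 12.0 CPM in the remaining members, Ehf at 65.7 against 17.98 CPM, and Tnfsf9, which encodes the costimulatory 4-1BB ligand, at 83.2 against 27.2 CPM. Cxcl1 and Cxcl2, which attract neutrophils, were at 61.8 and 61.5 CPM against 23.5 and 26.2 CPM. The log2 ratio of Ehf was positive in each population, at 3.2, 1.23, 2.45 and 1.25, and so was that of Tnfsf9, at 2.88, 1.59, 1.95 and 0.79. Cxcl1 was not, with -1.66 in BFP-RFP-. Mgl2 had ratios of 4.86, 1.88, 0.90 and -0.07. Cd209a had 58, 54, 1 and 0 UMIs in the CD301b-high members and 0, 21, 3 and 18 in the rest, so neither gene was higher in BFP-RFP-. The same split of the CD11b-tag-low cells, summed over populations, gave Mgl2 at 44.7 against 5.90 CPM and Ehf at 20.8 against 8.69 CPM. Tnfsf9 was at 53.7 against 29.9 CPM there, Cxcl1 at 35.4 against 13.5 CPM and Cxcl2 at 17.3 against 9.64 CPM. The direction of these sums was thus not particular to members.

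None of the 5 supplied markers was higher in the CD301b-high members of every population. Plek2 was at 16.1 CPM there and 33.5 CPM in the rest, Ifitm1 at 70.2 and 149 CPM, Edil3 at 20.04 and 22.7 CPM, Apol10b at 17.3 and 19.1 CPM, and Gstt1 at 27.6 and 26.8 CPM. Gstt1 had log2 ratios of 1.73, 1.08, 0.23 and -0.71, and Apol10b of 1.73 (from 2 UMIs), -2.69, 0.43 and -0.32. Plek2 was lower in all 4 populations, by -1.24, -2.69, -0.36 and -3.46, with 3, 1, 53 and 1 UMIs in the CD301b-high members, whereas Ifitm1 had a ratio of 0.06 in BFP+RFP-. Ehf and Plek2 thus differed in direction with the CD301b tag. Plek2 was also lower in the CD301b-high cells among the CD11b-tag-low cells, at 0.347 CPM (1 UMI) against 6.18 CPM.

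**Figure D5:**
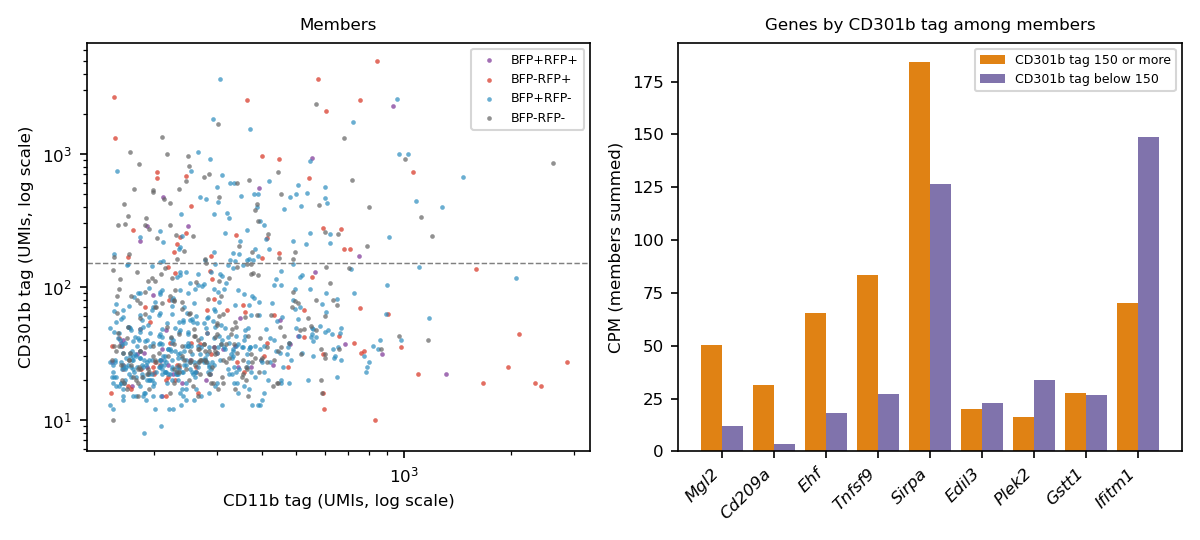
Left, CD301b against CD11b tag UMIs of each member on log axes, coloured by sorted population, with a dashed line at 150 CD301b UMIs; right, CPM of 9 genes summed over all members above and below that line. Mgl2, Cd209a, Ehf and Tnfsf9 bars are taller above the line, and Plek2 and Ifitm1 bars are taller below it; in BFP-RFP- alone neither Mgl2 nor Cd209a was higher above it, and 5 cells held 89.0% of the Cd209a UMIs of members.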

How the data were processed

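The deposited matrix holds raw UMI counts as whole numbers. Its 6079 barcodes were read for 22548 genes and for 4 hashtags beside the 4 antibody tags. Per the file headers the writer was Cell Ranger 7.0.0, and GRCm39 is the build in the submitters' processing notes. How barcodes were called as cells is not given in the sources used. Counts cover mRNA, antibody and hashtag libraries of 1 capture, so cell barcodes are shared by design. Hashtags gave 5380 assigned barcodes and 5019 kept cells. No doublet caller was run; doublets between populations fall to the hashtag share, and those within a population were not removed.

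Sums, CPM and log2 ratios (pseudocount 0.5) were computed in Python 3.11.15 with scipy 1.17.1, and TMM factors with edgeR 4.0.16 (R 4.3.3) as an alternative scaling. Level intervals are exact Poisson, ratio intervals conditional binomial and share intervals Clopper-Pearson, at 95%, for counting error only. Shares of cells with a UMI were thinned to 5000 mRNA UMIs, leaving out 46 members and 328 others as shallower. Ratios and calls were tested on simulated data. Named genes were the 15 per direction with the largest smallest ratio over the 4 populations, the same direction against CD11b-tag-low cells, at least 300 UMIs and at most 10% of them in 5 cells; within members, 8 per direction. Gene models without a symbol were left out. Members of the fixed gene lists, the 5 markers and the tagged proteins' genes could also be named. The members and lists were chosen with earlier results of these data known. Tag sequences come from the deposited tag description.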

Additional observations from a re-analysis of the deposited data

Results flagged for a closer look

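Ifitm1 and Mgl2 pointed in opposite directions in different sorted populations, each with counting intervals that exclude 0; the differences between populations were not tested. The log2 ratio of Ifitm1 in members over other kept cells was 3.78 in BFP+RFP+ and -0.30 in BFP-RFP-. That of Mgl2, the gene of CD301b, was 2.40 in BFP+RFP+ and -0.65 in BFP-RFP-, and 5 cells held 20.8% of the Mgl2 UMIs of all kept cells. Of the 39 BFP+RFP+ members, only 6 had an Ifitm1 UMI and 7 an Mgl2 UMI. The counting intervals do not cover the spread between cells, so the 2 BFP+RFP+ ratios may rest on those few cells.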

How the results depend on the processing

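No paired analysis was possible because every sorted population entered only once. The results rest on 1 capture, on as few as 39 members in a population and on calls without a test. The main values were 896 members, 135 genes called higher and 351 lower (26 and 36 of them in the fixed lists), 41 genes that differed between BFP+ and BFP- members, 41 between RFP+ and RFP- members, and 9.06% of members with 2 or more markers. A CD11b tag of 300 or more left 376 members and 18 listed genes called lower. With the CD11b criterion alone, share ratios were 2.26 and 1.63, 7.11% of members had 2 or more markers, 326 genes were called higher and 187 lower, 75 listed genes were higher, and 91 (BFP) and 73 (RFP) genes differed between members. Thinning to 2000 UMIs gave 2.58% and no thinning 21.5%. A pseudocount of 5 gave 398 higher and 65 lower, 12 listed genes lower and 26 BFP differences. Leaving T, B and C1q cells out of the others only, while the members kept theirs, raises the ratios of T cell genes by construction; the calls were 215 and 172, with 40 and 10 in the lists, and Lck (0.25) and Tnik (0.85) reversed. Against CD11b-tag-low cells 46 listed genes were higher and 22 lower. Filters of 30 UMIs and 1 UMI gave 206 and 2133 higher genes, the latter with 43 listed, many being ratios of near-empty genes. A call size of 0.5 gave 429 higher, 803 lower and 57 listed higher; a size of 2 gave 19, 86, 5 and 14 (listed lower). Leaving out 1 population in turn gave 139 to 202 genes higher and 380 to 483 lower, and 21 of 88 called genes that were listed or named lost the call in at least 1 case, 10 of them without BFP+RFP+. Settings chosen after seeing the data were a pseudocount in proportion to depth (112 and 484) and leaving T, B and C1q cells out of members and others alike (196 and 199, with 37 and 12 in the lists). Among 700 values of 35 named genes under 20 settings, 573 stayed within their counting interval, 125 moved and 2 reversed.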
